A study of Mesocricetus auratus with 38 samples.

Results

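The genes described here are the liver X receptors (LXRs), their sterol transporters and the enzymes and receptor that handle cholesteryl ester and HDL cholesterol in the liver. They are 9 genes of the 14631 symbols measured, chosen by name: Nr1h3, Nr1h2, Abcg5, Abcg8, Abca1, Abcg1, Soat1, Soat2 and Scarb1. All 9 were present in the tables, and all 9 passed the filter on low counts, which kept 9099 symbols. Liver RNA of male Golden Syrian hamsters, aged 22 weeks by their labels, was sequenced in 38 libraries. The HFD group (10 libraries) was kept for 12 weeks on a high-fat diet, in which fat gave 23% of calories and cholesterol was added at 1 g/kg, and was given a placebo. The Dose I group (labelled HFD + MI_D1, 9 libraries) ate the same diet and was given combined metabolic activators (CMA) over the last 4 weeks, as 200 mg/kg each of carnitine, N-acetylcysteine (NAC) and nicotinamide riboside (NR) with 400 mg/kg betaine. The Dose II group (labelled HFD + MI_D2, 10 libraries) was given 400 mg/kg of each of the first 3 and 800 mg/kg betaine on that diet. The control group (labelled Chow diet, 9 libraries) was kept on a diet in which fat gave 11% of calories. Single libraries are called by a letter code for the group (H, DI, DII or C) joined to their label number. All groups were fasted before the liver was taken. CMA was given only on the HFD, so its effect on the control diet was not measured.

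LXRs are nuclear receptors that are switched on by oxysterols, the oxidised forms of cholesterol, and bind DNA together with a retinoid X receptor. In mice and humans they are known to raise transcription of the ABC transporters that move sterol out of cells, which sends cholesterol from hepatocytes into bile or onto HDL. Cholesterol that stays in the cell can be joined to a fatty acid by the sterol O-acyltransferases and stored or secreted as cholesteryl ester. Hamsters are often used for cholesterol studies because, unlike rats and mice, they carry cholesteryl ester transfer protein in plasma.

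The libraries held 4.08e+06 to 1.04e+07 estimated counts each, with a median of 5.63e+06. Control library C105 stood apart from the rest. Its score on the first principal component was 19.2, against -23.1 to 12.3 for the other 37 libraries and -23.1 to -12.7 for the other 8 controls. The study left out 1 control library that it did not name, and here the main values come from the 37 libraries without library C105, with the values over all 38 given beside each result that turns on it. Hepatocyte markers were abundant, with albumin (Alb) at a mean of 145000 CPM (counts scaled to library size), and none of the 11 hepatocyte markers in the table was at 0 in any of the 37 libraries. These 11 markers summed to 135200 to 201800 CPM in HFD livers and 213400 to 253600 CPM in the 8 control livers. Alb alone averaged 135400 CPM in HFD livers and 188500 CPM in control livers, and made up most of each sum. By the edgeR test described below, 2 of the 11 were higher and 5 lower in HFD vs. control (0 and 3 over 38 libraries). In that comparison 18.1% of all tested genes were called in each direction. Each library was taken as 1 animal, which the labels do not state, so the p-values measure the spread between these libraries.

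The 9 genes spanned more than 2 orders of magnitude in level. Levels of different genes are compared here in TPM, a share of transcripts that corrects for transcript length, as mean ± SD over 37 livers. Nr1h3, which encodes LXRα, was the highest at 173.4 ± 21.3 TPM, and Scarb1, which encodes the HDL receptor SR-BI, followed at 161.4 ± 36.4 TPM. Their ranges overlapped, and Nr1h3 was the higher of the pair in 25 of 37 livers. Soat2, the acyltransferase of hepatocytes, came next at 39.3 ± 4.38 TPM, below Scarb1 in 37 of 37 livers with no overlap. Abcg8 and Abcg5, which together form the canalicular exporter of cholesterol and plant sterols, stood at 25.6 ± 4.997 and 25.4 ± 7.87 TPM and did not differ beyond their spread, Abcg8 being the higher in 21 of 37 livers. Nr1h2, which encodes LXRβ, was at 16.9 ± 4.29 TPM, and Abca1, which loads phospholipid and cholesterol onto lipid-poor apolipoprotein A-I, at 9.51 ± 1.63 TPM. Abcg1, a transporter of macrophages and endothelium that passes cholesterol to mature HDL, was at 0.948 ± 0.348 TPM, below Abca1 in 37 of 37 livers. Soat1, the acyltransferase best known from macrophages, was lowest at 0.576 ± 0.262 TPM. Nr1h3 and Scarb1 lay at percentiles 94.8 and 94.5 of the tested genes, and Abcg1 and Soat1 at percentiles 7.70 and 3.07. The last pair rested on 9 to 64 and 4 to 22 counts per library, which limits what could be detected for them.

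**Figure D1:**
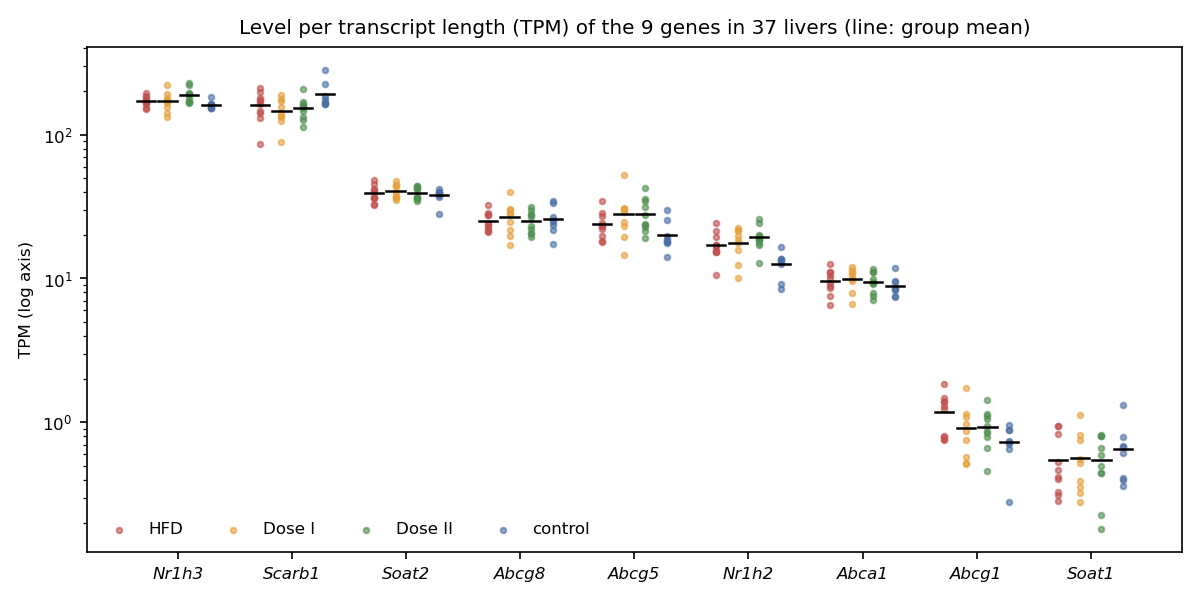
Level of each of the 9 genes in TPM, on a log axis, in 37 livers (points, coloured by group) with the group mean as a line. Nr1h3 and Scarb1 average 173.4 and 161.4 TPM, and Abcg1 and Soat1 average 0.948 and 0.576 TPM.

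The first question was whether the high-fat, high-cholesterol diet changed these genes. Nr1h2 and Abcg1 were higher in HFD than in control livers, and 0 of 9 were lower (edgeR quasi-likelihood test, Benjamini-Hochberg adjusted p under 0.1 over all tested genes). In this comparison 18.1% of all tested genes were called higher and 18.1% lower, so 2 of 9 is close to the background. Over all 38 libraries 0 of 9 were called higher, against 6.63% of tested genes, with 1 of 9 at an unadjusted p under 0.05 (Abcg1). The median log2 fold change was 0.12 over the 9 genes and 0.01 over all tested genes.

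Levels of 1 gene across livers are given below in CPM scaled by the trimmed mean of M-values (TMM), as lowest, median and highest. Nr1h2 was at 20.3, 31.5 and 44.5 CPM in HFD livers, against 16.2, 24.4 and 31.2 CPM in the 8 control livers. Of the HFD livers, 9 of 10 lay above the control median and 8 of 8 controls lay below the HFD median, although the groups overlapped. The log2 fold change was 0.47, or 1.38-fold (SE 0.15, adjusted p = 0.0145). Control library C105 had 55.9 CPM, above every other liver, and with it the log2 fold change was 0.27 and the adjusted p was 0.314.

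Nr1h3 was at 119.7, 132.6 and 166 CPM in HFD livers, against 118.6, 123.25 and 133.4 CPM in control livers. The controls formed a narrow band at the lower end of the HFD range. The log2 fold change of 0.12 (SE 0.08, adjusted p = 0.264) did not pass the test, and its 95% interval was -0.04 to 0.27. As a share of LXR transcript (Nr1h3 of Nr1h3 + Nr1h2, in TPM), LXRα made up 90.8% ± 2.06 in HFD livers and 92.8% ± 1.32 in control livers (SD, n = 10 and 8). That difference of -1.94 percentage points had an exact two-sided permutation p of 0.0355 and an adjusted p of 0.106 over the 9 share tests made, and did not pass.

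Among the exporters, Abcg1 was at 4.60, 7.49 and 10.8 CPM in HFD livers, against 1.66, 4.42 and 5.50 CPM in control livers. All 10 HFD livers lay above the control median, and 6 of them lay above the highest control. The log2 fold change was 0.69, or 1.62-fold (SE 0.22, adjusted p = 0.0175). Control library C105 had 9.35 CPM, and over 38 libraries the log2 fold change was 0.54 with an adjusted p of 0.118.

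Abcg1 moved with the markers of Kupffer cells, the resident macrophages of liver. In HFD vs. control 18.1% of all tested genes were called in each direction. Of 16 Kupffer cell markers in the table, 10 were higher and 0 lower in HFD than in control livers (5 and 0 over 38 libraries). Among them were the scavenger receptor gene Marco (log2 fold change 1.01, adjusted p = 2.17e-05) and Cd5l, a secreted macrophage protein (0.82, adjusted p = 0.00015). The 16 markers summed to 357.8 to 597.2 CPM in HFD livers, 270.6 to 369.5 CPM in the 8 control livers and 641.6 CPM in control library C105, and none was at 0 in any library of the 37. Of 9 sinusoidal endothelial markers, 2 were higher and 0 lower (0 and 0 over 38 libraries), which is close to the share of all tested genes. They summed to 181.3 to 360.2 CPM in HFD livers, against 167.3 to 267.4 CPM in control livers. In RNA of whole liver, more cells of a type and more RNA per cell cannot be told apart, and the part of these cells in the Abcg1 difference was not tested.

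The other transporters did not pass the test in HFD vs. control. Abca1 was at 79.3, 105.55 and 135.7 CPM in HFD livers, against 83.3, 96.4 and 125.5 CPM in control livers (log2 fold change 0.12, SE 0.11, adjusted p = 0.415). Abca1 has the longest transcript of the 9 (percentile 99.4 of length), and long transcripts of widely expressed genes were lower in HFD livers. Of 25 such genes, 15 were called lower and 1 higher (6 and 0 over 38 libraries), beside 18.1% of all tested genes in each direction. Across libraries, the Spearman correlation of a gene's deviation with its length was -0.2 to 0.172 in HFD livers and 0.115 to 0.338 in the 8 control livers. With each library's trend with length taken out, Abca1 was called higher (log2 fold change 0.33, adjusted p = 0.00924).

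Abcg5 was at 43.9, 56.6 and 80.9 CPM in HFD livers, against 33.1, 46.1 and 68.2 CPM in control livers (log2 fold change 0.26, SE 0.17, adjusted p = 0.279). Abcg8 was at 105.7, 120.5 and 157 CPM in HFD livers, against 85.5, 127.05 and 178.7 CPM in control livers (log2 fold change -0.04, SE 0.13, adjusted p = 0.862). The HFD livers lay mostly in the upper part of the control range for Abcg5 and in its middle for Abcg8. Intervals of the log2 difference ran from -0.09 to 0.61 for Abcg5 and from -0.30 to 0.23 for Abcg8.

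The storage enzymes and the HDL receptor also missed the threshold. Soat2 was at 64.8, 78.4 and 107.5 CPM in HFD livers, against 59.5, 79.1 and 89.3 CPM in control livers (log2 fold change 0.07, 95% interval -0.12 to 0.25, adjusted p = 0.623). The medians were nearly the same, and the HFD livers spread further upward. Soat1 was at 0.882, 1.38 and 2.87 CPM in HFD livers, against 1.10, 2.01 and 3.845 CPM in control livers (log2 fold change -0.24, 95% interval -0.84 to 0.36, adjusted p = 0.585). Scarb1 was at 148.5, 290.9 and 372.05 CPM in HFD livers, against 272.1, 299.5 and 473.65 CPM in control livers (log2 fold change -0.23, 95% interval -0.51 to 0.06, adjusted p = 0.23). The lowest HFD livers lay below every control for Scarb1. Soat2 made up 98.5% ± 0.852 of Soat transcript in HFD livers and 98.3% ± 0.906 in control livers (adjusted permutation p = 0.889).

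**Figure D2:**
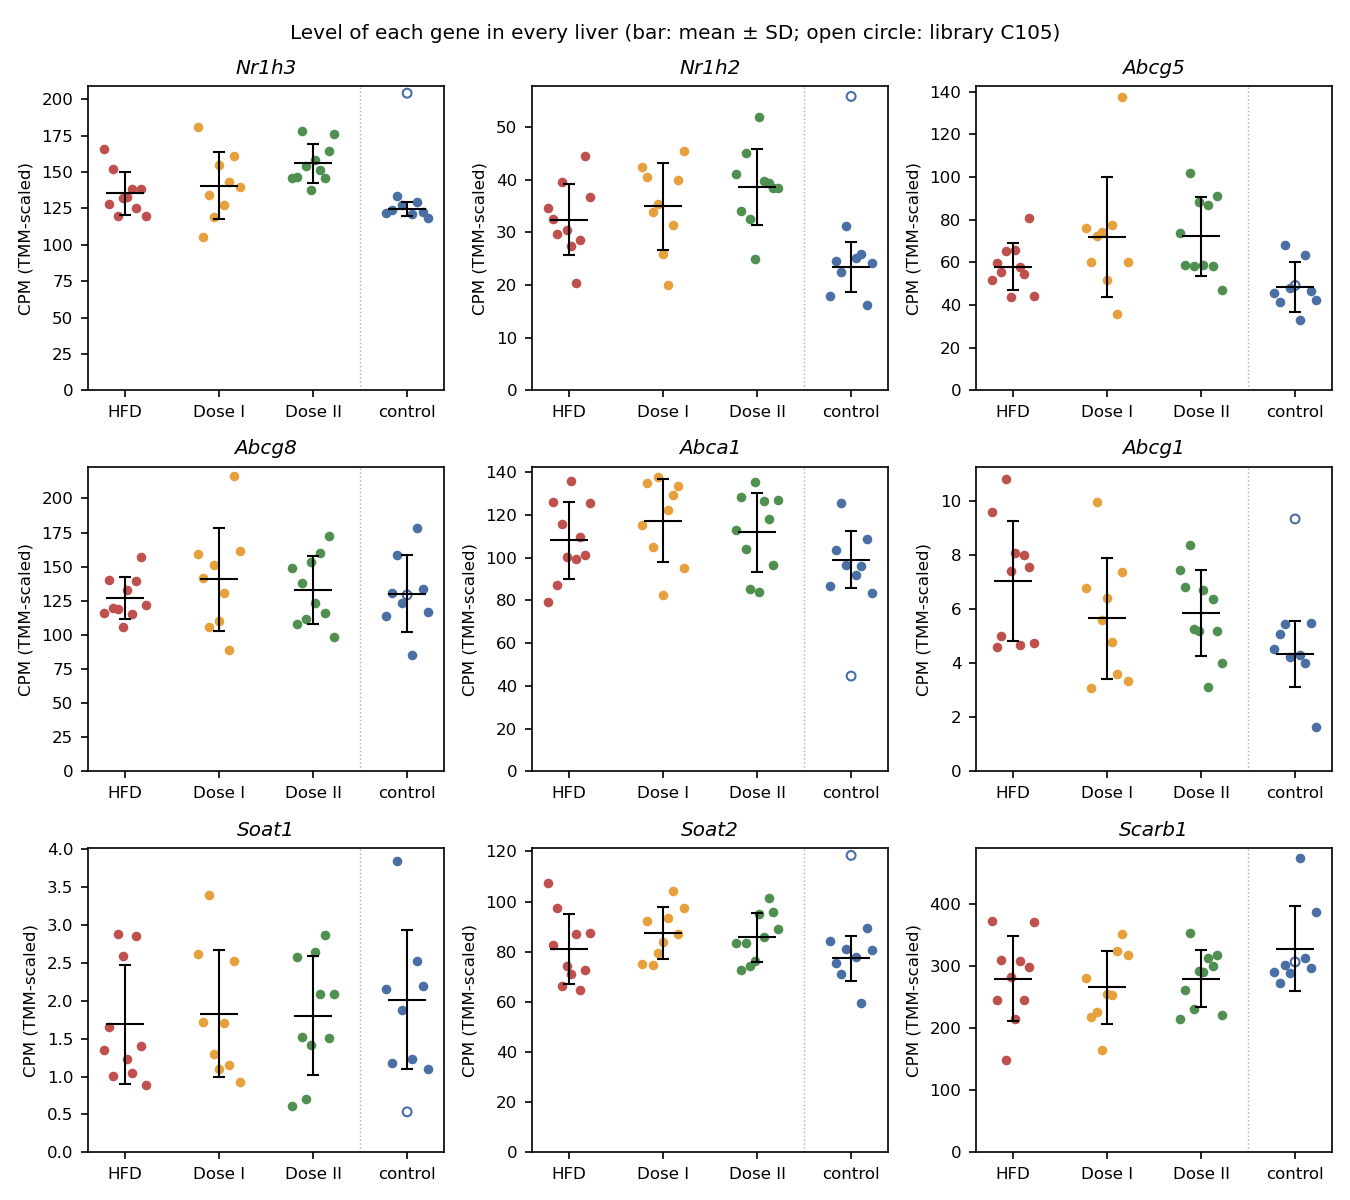
Level of each of the 9 genes in every liver, in TMM-scaled CPM from 0, with the mean ± SD of the group as a bar and control library C105 as an open circle outside those bars. Nr1h2 averages 32.5 CPM in HFD livers and 23.5 CPM in control livers, and library C105 lies at 55.9 CPM.

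The second question was whether CMA changed these genes on the HFD. At Dose I, 0 of 9 passed the test against HFD by edgeR, and 0 of 9 had an unadjusted p under 0.05. DESeq2 called 0 of the 7 to which it gave an adjusted p, which left out Abcg1 and Soat1. Few genes did so in the whole table, with 0.154% of tested genes called higher and 0.033% called lower. Adjusted p-values of the 9 ran from 0.584 to 0.929. At Dose II, 0 of 9 passed against HFD by edgeR, 1 had an unadjusted p under 0.05, and 1 was called by DESeq2, Nr1h3 in each case. Here 3.37% of tested genes were called higher and 2.25% lower.

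Nr1h3 came nearest to the threshold. Along the doses it was at 119.7, 132.6 and 166 CPM in HFD livers without CMA, at 105.35, 139.8 and 181.3 CPM in Dose I livers and at 137.65, 152.7 and 178 CPM in Dose II livers. All 10 Dose II livers lay above the HFD median and 9 of 10 HFD livers lay below the Dose II median. The log2 fold change at Dose II was 0.20 (SE 0.07, 95% interval 0.06 to 0.35) with an adjusted p of 0.114, and by DESeq2 the adjusted p was 0.0957. It was also called without HFD library H110 or without HFD library H112, and the adjusted p ran from 0.0519 to 0.234 when each library was left out in turn. It was further from the threshold over 38 libraries (adjusted p = 0.277), with the length trend taken out (log2 fold change 0.16, adjusted p = 0.22) and by limma on log2(TPM + 1) (0.13, adjusted p = 0.298).

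Abcg5 was at 43.9, 56.6 and 80.9 CPM in HFD livers without CMA, at 35.9, 72.4 and 137.35 CPM in Dose I livers and at 47.05, 66.2 and 102.01 CPM in Dose II livers. Of the Dose II livers, 9 of 10 lay above the HFD median. The log2 fold change was 0.31 (95% interval -0.03 to 0.64, adjusted p = 0.584) at Dose I and 0.32 (95% interval -0.01 to 0.65, adjusted p = 0.285) at Dose II. Without Dose I library DI127 the Dose I value was 0.13 (adjusted p = 0.883). Nr1h2 was at 24.9, 38.96 and 51.9 CPM in Dose II livers, against 20.3, 31.5 and 44.5 CPM in HFD livers (log2 fold change 0.25, adjusted p = 0.313). As for Abcg5, 9 of 10 Dose II livers lay above the HFD median.

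Abcg1 had the lowest log2 fold changes of the 9 against HFD, at -0.31 for Dose I and -0.27 for Dose II. It was at 4.60, 7.49 and 10.8 CPM in HFD livers without CMA, at 3.10, 5.61 and 9.99 CPM in Dose I livers and at 3.14, 5.84 and 8.37 CPM in Dose II livers. Only 1 liver at each dose lay above the HFD median. Neither difference passed the test (adjusted p = 0.668 at Dose I and 0.502 at Dose II), and their 95% intervals were -0.73 to 0.10 at Dose I and -0.67 to 0.14 at Dose II. Of the 16 macrophage markers, 8 were lower and 1 higher at Dose II vs. HFD (2 and 1 over 38 libraries). Of all tested genes 2.25% were lower and 3.37% higher. The summed level of the markers was 269.6 to 489.4 CPM in Dose II livers, against 357.8 to 597.2 CPM in HFD livers. In Dose I livers it was 291.4 to 538.7 CPM. At Dose I vs. HFD edgeR called 0 of the 16, with 12 lower and 1 higher at an unadjusted p under 0.05. DESeq2 called 2 lower there, of the 10 to which it gave an adjusted p. The median log2 fold change of the markers was -0.46 at Dose I and -0.40 at Dose II. Timd4, a receptor gene of resident Kupffer cells, was among the markers called lower at Dose II (log2 fold change -0.66, adjusted p = 0.0387). Their part in the level of Abcg1 was not tested.

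Abcg8, Abca1, Soat1, Soat2 and Scarb1 had log2 fold changes of 0.07, 0.05, 0.10, 0.08 and -0.001 at Dose II vs. HFD. Their adjusted p-values lay at or above 0.656. Abcg8 was at 89.2, 142.0 and 216.5 CPM in Dose I livers and at 98.6, 130.9 and 172.2 CPM in Dose II livers. Abca1 was at 82.4, 122.4 and 137.8 CPM in Dose I livers and at 84.2, 115.7 and 135.3 CPM in Dose II livers. For these transporters the livers of each dose overlapped the HFD livers. Soat2 was at 74.8, 87.0 and 104.2 CPM in Dose I livers and at 72.8, 84.6 and 101.55 CPM in Dose II livers, within the HFD range. Scarb1 was at 164.4, 254.8 and 351.3 CPM in Dose I livers and at 215.4, 291.4 and 352.3 CPM in Dose II livers, also within it. Soat1 stayed between 0.932 and 3.385 CPM in Dose I livers and between 0.611 and 2.86 CPM in Dose II livers. For Scarb1 the 95% interval of the log2 difference was -0.27 to 0.27, and for Soat2 it was -0.09 to 0.25. Between the doses, 0 of 9 passed by edgeR or by DESeq2 in Dose II vs. Dose I, 0 had an unadjusted p under 0.05, and 0% of tested genes were called in either direction.

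**Figure D3:**
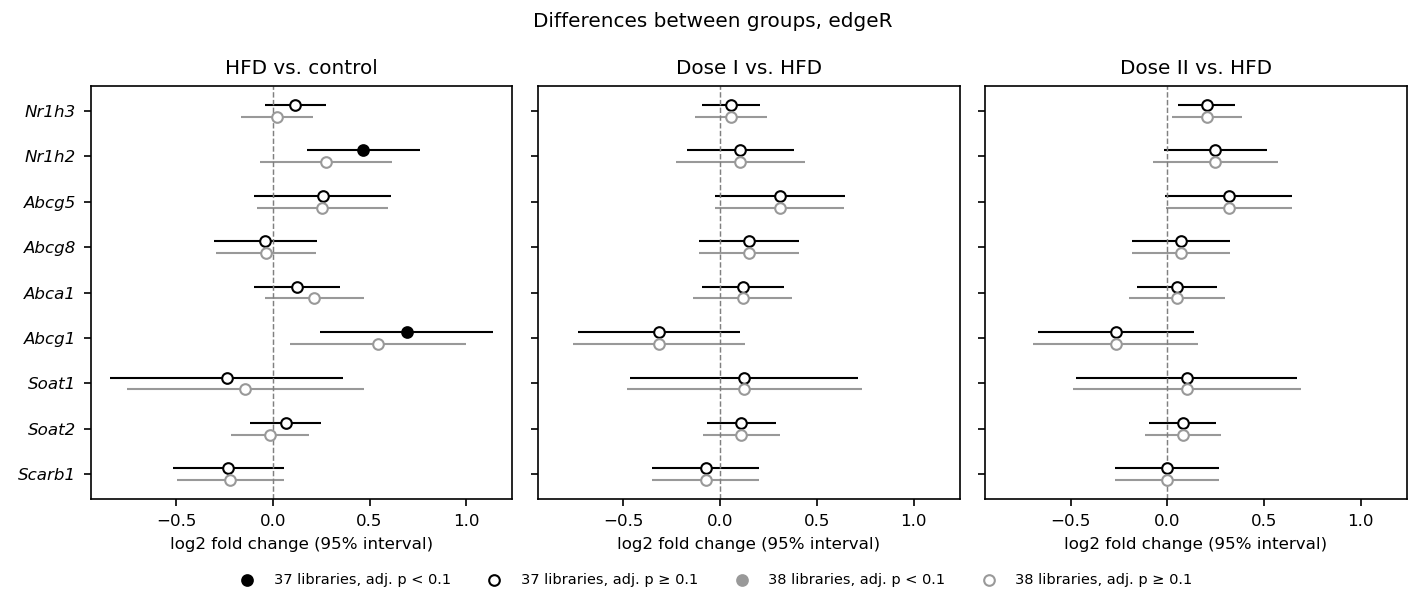
Log2 fold change with its 95% interval for the 9 genes in HFD vs. control, Dose I vs. HFD and Dose II vs. HFD, over 37 libraries (black) and all 38 (grey), with filled points for an adjusted p under 0.1. Nr1h2 (0.47) and Abcg1 (0.69) in HFD vs. control are the only filled points, and their grey counterparts are open.

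The CMA groups were also set against control, a comparison in which diet and CMA differ together. Dose II livers had 3 of 9 genes higher and 0 lower, where 23.9% of tested genes were higher and 23.4% lower. The log2 fold change was 0.72 for Nr1h2 (SE 0.14, adjusted p = 0.000152), 0.58 for Abcg5 (SE 0.17, adjusted p = 0.00778) and 0.32 for Nr1h3 (SE 0.08, adjusted p = 0.00106). For Nr1h3 the lowest Dose II liver, at 137.65 CPM, lay above the highest of the 8 controls, at 133.4 CPM, a separation shared by 2.21% of genes. With the length trend taken out, the log2 fold change of Nr1h3 was 0.16 (adjusted p = 0.0941). Control library C105, at 204.2 CPM, lay above all of them. Over 38 libraries the same 3 were called, where 15.6% of tested genes were higher.

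Dose I livers had 4 of 9 genes higher and 0 lower than control livers, where 20.6% of tested genes were higher and 20.1% lower. Nr1h2 had a log2 fold change of 0.57 (adjusted p = 0.003), Abcg5 of 0.57 (adjusted p = 0.0135), Abca1 of 0.24 (adjusted p = 0.0918) and Nr1h3 of 0.18 (adjusted p = 0.0859). Over 38 libraries 2 of 9 were called, Abcg5 and Abca1, where 10.4% of tested genes were higher. With each library left out in turn, Nr1h2 and Abcg5 kept their calls, while Nr1h3 and Abca1 each lost theirs in 11 of 17 cases. Nr1h3 lost it without any one of C101, C102, C104, C106, C108, C109, DI120, DI124, DI126, DI127 and DI128 (log2 fold change 0.12 to 0.23 over the 17), and Abca1 without any one of C101, C104, C106, C107, C109, DI120, DI121, DI123, DI125, DI126 and DI127 (0.21 to 0.29). Only 2 genes were called higher without C101, C104, C106, C109, DI120, DI126 or DI127. Nr1h3 was also at 0.04 (adjusted p = 0.761) with the length trend taken out and at 0.07 (adjusted p = 0.523) by limma on log2(TPM + 1). Abca1 was at 0.50 (adjusted p = 0.000196) and 0.15 (adjusted p = 0.337) in the same fits. These comparisons share their control livers with HFD vs. control, so their values are not independent of it.

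Abcg5 and Abcg8 varied together from liver to liver. Over 37 livers the correlation of their deviations from the group mean (log2 CPM) was r = 0.837 and rho = 0.781, each with a permutation p of 1e-05, the smallest the resamples could give, and an adjusted p of 4e-05 over 4 pairs. Without the 2 livers farthest out in Abcg5 it was r = 0.761. Within groups r was 0.712 in HFD, 0.822 in Dose I, 0.88 in Dose II and 0.916 in control livers. Of all tested genes, Abcg8 was the one most like Abcg5, and Abcg5 the one most like Abcg8. Abcg8 had counts that were not whole in 38 of 38 libraries, which the other 8 genes never had, as happens where the software shares reads between genes, so its level is less certain.

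The balance between Abcg5 and Abcg8 transcripts in TPM differed in HFD vs. control and in Dose II vs. HFD. Neither difference passed with the length trend taken out, as given below. Abcg5 made up 48.6% ± 3.24 of Abcg5 + Abcg8 TPM in HFD livers and 43.7% ± 2.32 in control livers (SD, n = 10 and 8). The lowest, median and highest shares were 43.1%, 48.6% and 53.2% in HFD livers, against 39.8%, 43.8% and 47.3% in control livers, and 9 of 10 HFD livers lay above the control median. The difference of 4.86 percentage points had an exact two-sided permutation p of 0.00329 (adjusted p = 0.0293 over 9 tests). At Dose II the share was 52.7% ± 3.16, against 48.6% ± 3.24 in HFD livers, and 10 of 10 Dose II livers lay above the HFD median. That difference of 4.15 points had a two-sided permutation p of 0.00651 (adjusted p = 0.0293). At Dose I it was 50.8% ± 5.13, which did not differ from HFD by the test (2.23 points, adjusted permutation p = 0.598).

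Abcg8 was counted as 2.08 times as long as Abcg5, so a trend with length moves this share. With each library's trend with length taken out, an alternative chosen after seeing the data, the differences were 3.16 points for HFD vs. control (adjusted permutation p = 0.164) and 3.40 points for Dose II vs. HFD (adjusted permutation p = 0.161), and neither passed. The difference at Dose II also missed the threshold without any one of HFD libraries H110, H111, H114, H117 and H119 or Dose II libraries DII131 and DII133, where it lay within 3.27 to 4.67 points with an adjusted p of up to 0.0628. These comparisons share the HFD livers.

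**Figure D4:**
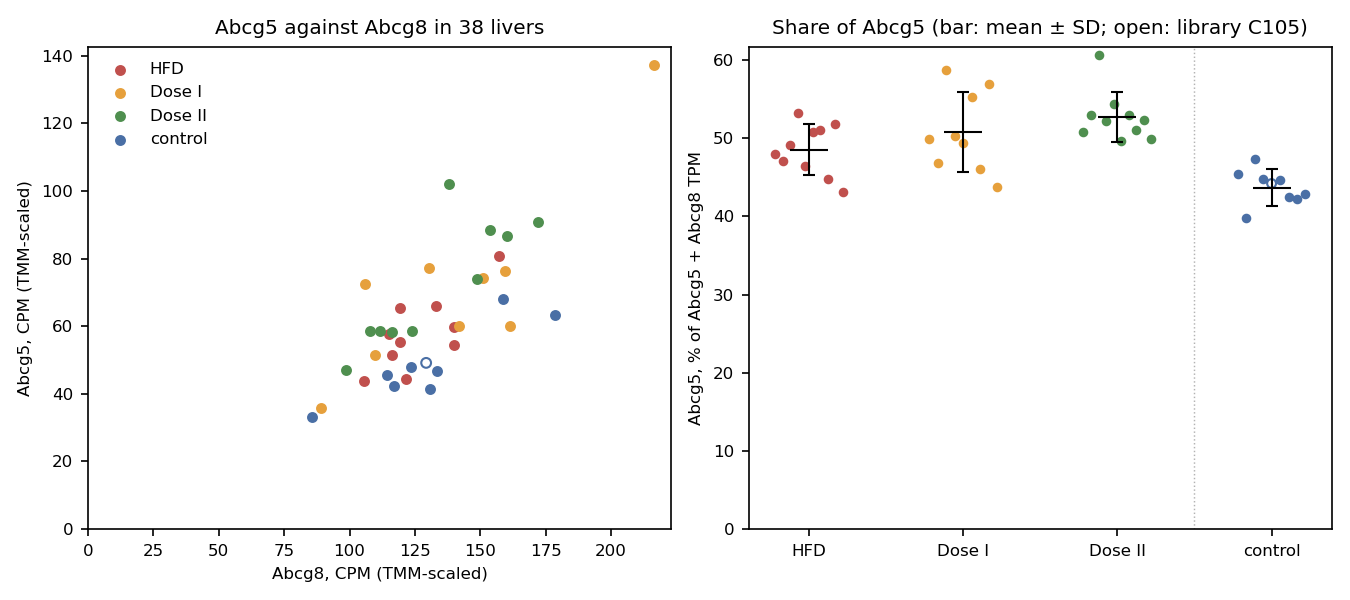
Left, Abcg5 against Abcg8 in TMM-scaled CPM in 38 livers, coloured by group. Right, Abcg5 as a percentage of Abcg5 + Abcg8 TPM in every liver, with the group mean ± SD and control library C105 as an open circle; the means are 48.6% in HFD, 50.8% in Dose I, 52.7% in Dose II and 43.7% in control livers.

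The receptors and their targets were less tightly linked. Nr1h3 and Abca1 varied in opposite directions over 37 livers (r = -0.4, permutation p = 0.0243, adjusted p = 0.0487; rho = -0.408, permutation p = 0.0193, adjusted p = 0.0386). Without the 2 livers farthest out in Nr1h3 it was r = -0.418. The relation did not hold within every group, with r of -0.832 in HFD, -0.369 in Dose I, -0.333 in Dose II and 0.731 in control livers. With log2(TPM + 1) in place of log2 CPM it was r = -0.229 (adjusted permutation p = 0.401), and over 38 libraries r = -0.62 (adjusted permutation p = 0.00312). The change to -0.62 comes from 1 added library, C105. It had the highest Nr1h3 (204.2 CPM) and the lowest Abca1 (44.6 CPM) of the 38, and the lowest correlation of deviation with length (-0.353). Nr1h3 stands at percentile 10.6 of transcript length and Abca1 at percentile 99.4, and the part of the length trend in this correlation was not tested. For Nr1h3 with Abcg5, r was 0.155 and rho 0.13 (adjusted permutation p = 0.622 and 0.623), and for Abca1 with Abcg1, r was -0.0455 and rho -0.0441 (adjusted permutation p = 0.798 and 0.806).

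The single gene most like each of the others was taken by the same deviations over 37 livers, as a description. For Nr1h3 it was Cyp7a1, the rate-limiting enzyme of bile acid synthesis, at r = 0.58. For Nr1h2 it was Ndufa11, a subunit of mitochondrial complex I, at r = 0.86. For Abcg1 it was Mpeg1, a macrophage gene, at r = 0.79. The others were Fam126b for Abca1 (r = 0.747), Abhd14b for Soat2 (r = 0.84), Slc48a1, a heme transporter gene, for Scarb1 (r = 0.762), and Ebf4 for Soat1 (r = 0.646). All points share library depth and length trend.

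Around these 9 genes, the pathway was read from 5 gene lists. Of 12 other LXR target genes tested, 7 were higher and 0 lower in HFD than in control livers, with a median log2 fold change of 0.33 (4 higher over 38 libraries), where 18.1% of all tested genes were higher and their median was 0.01. With the length trend taken out, a count made after seeing the data, 6 were higher and 0 lower. In that fit their median was 0.34, and 2880 of 9099 tested genes were called in either direction. Apoe, a ligand of lipoprotein receptors, averaged 12670 ± 3614 CPM in HFD livers and 6339 ± 1478 CPM in control livers (log2 fold change 0.9995, adjusted p = 0.000206, and 0.69 with adjusted p = 0.0425 over 38 libraries). Mlxipl, the glucose-responsive factor ChREBP, averaged 313.9 ± 61.3 CPM in HFD livers and 213.4 ± 35.7 CPM in control livers (log2 fold change 0.56, adjusted p = 0.000208). Apoc4, an apolipoprotein gene of the Apoe cluster, had a log2 fold change of 0.46 (adjusted p = 0.00342), which was 0.19 with an adjusted p of 0.472 over 38 libraries. Its transcript is short (percentile 2.47 of length), and with the length trend taken out the value was 0.27 (adjusted p = 0.046). At Dose II vs. HFD, Apoc4 was higher (log2 fold change 0.35, adjusted p = 0.0692) and Lpcat3, a phospholipid-remodelling enzyme, was lower (-0.37, adjusted p = 0.0907), while over 38 libraries neither passed (adjusted p = 0.293 and 0.142). At Dose I vs. HFD 0 of the 12 passed by edgeR, and 0 of the 9 to which DESeq2 gave an adjusted p, with 4 at an unadjusted p under 0.05.

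Among the LXR partners and coregulators, 2 of 10 were higher and 6 lower in HFD than in control livers (0 and 3 over 38 libraries). Of all tested genes 18.1% were called in each direction, so the 2 higher are close to the background. The coactivator gene Ncoa2 averaged 8.62 ± 4.09 CPM in HFD livers and 20.5 ± 6.04 CPM in control livers (log2 fold change -1.26, adjusted p = 0.000147). Ncoa1, also a coactivator (-0.57, adjusted p = 0.00239, and 0.128 over 38 libraries), and Ncor1, a corepressor (-0.52, adjusted p = 0.00382), were lower too. These 3 genes stand at percentiles 87.1, 87.8 and 89.2 of transcript length. With the length trend taken out, a count made after seeing the data, 4 of 10 were lower and 2 higher. In that fit 2880 of 9099 tested genes were called in either direction, and Ncoa2 was at -1.17 (adjusted p = 0.000219). None of the 10 passed at either dose against HFD by edgeR, with 0 at an unadjusted p under 0.05, nor by DESeq2, which gave 8 of them an adjusted p at Dose I and all 10 at Dose II.

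Of 5 tested genes that make or clear oxysterols, 1 was higher and 2 lower in HFD than in control livers (1 and 1 over 38 libraries), where 18.1% of all tested genes were called in each direction. Cyp27a1, the mitochondrial sterol 27-hydroxylase, averaged 363.9 ± 111.3 CPM in HFD livers and 201.1 ± 43.6 CPM in control livers (log2 fold change 0.86, adjusted p = 0.000276, and 0.000618 over 38 libraries). Cyp39a1, an oxysterol 7α-hydroxylase gene, was lower (log2 fold change -0.34, adjusted p = 0.0394, and 0.234 over 38 libraries). Of 14 tested genes of ester hydrolysis and sterol traffic, 2 were higher and 1 lower (1 and 1 over 38 libraries), again beside 18.1% in each direction. Npc2, a lysosomal sterol carrier, had a log2 fold change of 0.50 (adjusted p = 0.00136), and Stard3, an endosomal sterol-binding protein, of 0.25 (adjusted p = 0.0356, and 0.508 over 38 libraries). Stard4, a soluble sterol carrier known to be raised by SREBP-2, was lower (log2 fold change -1.67, adjusted p = 0.00015). Its level was low, at 1.5 ± 0.937 CPM in HFD livers and 4.69 ± 2.03 CPM in control livers.

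Of 9 HDL particle genes, 2 were higher and 4 lower in HFD than in control livers (1 and 2 over 38 libraries), where 18.1% of all tested genes were called in each direction. Apoa2, an HDL apolipoprotein, averaged 5196 ± 959.8 CPM in HFD livers and 2456 ± 710.8 CPM in control livers (log2 fold change 1.08, adjusted p = 1.19e-07). Apom had a log2 fold change of 0.46 (adjusted p = 0.000301, and 0.614 over 38 libraries), and Lipg, endothelial lipase, of -1.69 (adjusted p = 0.00365). The members of the oxysterol, ester and HDL lists did not pass at either dose against HFD by edgeR. At an unadjusted p under 0.05 these 3 lists held 3 genes at Dose I vs. HFD and 4 at Dose II vs. HFD, and DESeq2 called 1, in the ester list at Dose II. At Dose I, DESeq2 gave an adjusted p to 9 of 14 genes of the ester list and 7 of 9 of the HDL list. Nearest to the threshold at Dose II was Lipa, lysosomal acid lipase, at 107.2 ± 13.5 CPM in Dose II livers and 129.8 ± 21.9 CPM in HFD livers (log2 fold change -0.28, adjusted p = 0.114).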

How the data were processed

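The deposited tables hold kallisto's estimated counts per gene symbol, without normalization, and TPM of the same symbols, both made by the authors on hamster build MesAur1.0. Strand use is not given in the sources used here. All 38 columns were matched to labelled samples, and replicate numbers run from 101 to 138 over the groups and pair no samples. Estimated counts were rounded. Symbols with low counts were removed by filterByExpr (4 groups) and TMM factors were computed. The quasi-likelihood F test of edgeR 4.0.16 (R 4.3.3) was used, with Benjamini-Hochberg adjustment over every symbol tested and the study's threshold of 0.1. SE was obtained by dividing the absolute log2 fold change by the root of F. Control library C105 was left out of the main fit, a choice made with earlier results of these data known, and the fit over 38 libraries was also run. CPM were scaled over 38 libraries. Shares and correlations were tested by two-sided permutation (exact, or 100000 resamples where a group comparison had 10 libraries each and for correlations) with adjusted p under 0.05 as threshold. Relative length is the ratio of estimated counts to TPM, and its trend within each library was a lowess fit (span 0.3). Alternatives were DESeq2 1.42.0, limma 3.58.1 on log2(TPM + 1) and log2(TPM + 0.1), other size factors, other count filters (none, or at least 10 counts in every library), only the groups compared, leaving out each library and a 0.05 threshold. The test was checked on simulated counts.

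The members and gene lists were chosen with earlier results of these data known. The text names the 9 members, up to 3 genes of a list with the smallest adjusted p in HFD vs. control and in Dose II vs. HFD, and the gene most like each member. A gene that this rule also names is not reported here. The RefSeq annotation of another assembly (BCM_Maur_2.0) was used for names only, and all 9 symbols matched. No genome sequence was used. Near-identical genes can share reads in kallisto's estimates. No 2 libraries of a group were alike enough to be the same library. The labels give no batch or date.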

Additional observations from a re-analysis of the deposited data

Results flagged for a closer look

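Of 45 groups of values examined, 6 held a liver far from the rest by Dixon's criterion, which chance meets in about 1 of 20. In 4 of them it was control library C105 among the 9 controls. It had 204.2 CPM of Nr1h3 (next highest control 133.4), 55.85 CPM of Nr1h2 (next 31.18), 9.353 CPM of Abcg1 (next 5.498) and 118.4 CPM of Soat2 (next 89.31). Dose I library DI127 had 137.4 CPM of Abcg5, where the next highest Dose I liver had 77.3 CPM, and it was also the highest liver for Abcg8. Control library C109 had 1.658 CPM of Abcg1, where the next lowest of the 8 controls had 4.032 CPM.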

How the results depend on the processing

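Over 1525 log2 fold changes of the 9 genes under an alternative, 1414 kept their direction and side of the threshold, 36 lost the call, 26 gained it and 49 changed sign. None of the 49 was called in either fit, and the highest in size was 0.1324. In HFD vs. control the count of 2 genes became 0 over all 38 libraries and 1 with at least 10 counts in every library, a filter that removes Abcg1. In Dose II vs. HFD the count of 0 became 1 by DESeq2 (Nr1h3) and ran from 0 to 1 with each library left out. In Dose I vs. control the count of 4 became 2 over 38 libraries, 2 with no filter on low counts and 2 at a threshold of 0.05, and ran from 2 to 5, in either direction, with each library left out. In Dose II vs. control the count of 3 became 5 with the length trend taken out, which added Abca1 and Abcg1. By limma on log2(TPM + 1), Scarb1 gained a lower call in Dose I vs. control (adjusted p = 0.0315) and in Dose II vs. control (adjusted p = 0.0701). By limma on log2(TPM + 0.1) it gained both as well (adjusted p = 0.0319 and 0.0704). In Dose I vs. control it was also called lower by edgeR with only the 2 groups compared (adjusted p = 0.0956). The same held with at least 10 counts in every library (adjusted p = 0.0894) and with the length trend taken out (adjusted p = 0.0696). Without the length trend, the Abcg5 share differed by 3.161 points in HFD vs. control and 3.399 points in Dose II vs. HFD, and neither passed. No paired analysis was possible because the replicate numbers differ between groups. The cause of these changes was not tested.

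Signs changed as follows, all without a call. Over 38 libraries Soat2 was at -0.0139 in HFD vs. control. With no filter Scarb1 was at 0.0101 in Dose II vs. HFD. By limma on log2(TPM + 1) and log2(TPM + 0.1), Nr1h3 was at -0.0158 and -0.016 in Dose I vs. HFD, Abcg8 at -0.0132 and -0.014 and Abca1 at -0.0216 and -0.0232 in Dose II vs. HFD, and Abcg8 at -0.0454 and -0.0466 in Dose II vs. control. With the length trend taken out, Nr1h3 was at -0.0014 and Abcg8 at 0.0679 in HFD vs. control, and Abca1 at 0.0024 in Dose II vs. Dose I. The correlation of Abca1 with Abcg1 was 0.0433 in TPM.

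With each library left out, Abcg8 ran from -0.105 to 0.0417 in HFD vs. control, from -0.0345 to 0.1122 in Dose II vs. control and from -0.1436 to 0.0218 in Dose II vs. Dose I. Soat1 ran from -0.2715 to 0.0689 in Dose I vs. control, from -0.2322 to 0.0459 in Dose II vs. control, from -0.0329 to 0.2388 in Dose I vs. HFD and from -0.1198 to 0.1324 in Dose II vs. Dose I. In Dose II vs. HFD, Scarb1 ran from -0.0914 to 0.0529 and Abca1 from -0.0005 to 0.0888. In Dose II vs. Dose I, Abcg5 ran from -0.0781 to 0.1853, Abcg1 from -0.0442 to 0.1915 and Soat2 from -0.0592 to 0.0057. The Abcg5 share ran from 3.266 to 4.665 points in Dose II vs. HFD. The Nr1h3 share ran from -2.319 to -1.605 points in HFD vs. control (passing without HFD library H116), from -0.7816 to 0.1859 in Dose I vs. HFD and from -0.5079 to 0.2063 in Dose II vs. HFD. The Soat2 share ran from -0.1198 to 0.221 points in Dose I vs. HFD and from -0.06241 to 0.194 in Dose II vs. HFD. Counts limit Abcg1 and Soat1 most, with at most 64 and 22 counts in a library.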
